A study of Mus musculus with 3 samples.

Results

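The amino acid transporter families examined here are the Slc1, Slc3, Slc7, Slc36, Slc38 and Slc43 genes of the mouse, read in primary cultures of the embryonic cerebrum. Members were the non-control probes whose gene name was Slc1a1, Slc1a4 to Slc1a7, Slc3a1 or Slc3a2, Slc36a1 to Slc36a4, Slc43a1 to Slc43a3, or any name beginning with Slc7a or Slc38a and a digit. This gave 41 of the 22328 genes on the array, measured by 56 of its 55681 probes. By family there were 5 Slc1 genes, 2 Slc3 heavy chains, 10 Slc7 light chains, 5 Slc7 genes of the cationic branch, 4 Slc36 genes, 11 Slc38 genes and 3 Slc43 genes. The last member, Slc7a6os, is the opposite-strand neighbour of Slc7a6 and not a transporter, and it is counted here only because its name matches. The astrocyte glutamate transporters Slc1a2 and Slc1a3 lie outside the rule.

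The cells came from the cerebrum of C57BL6/J embryos at embryonic day 18 and were kept in neurobasal medium with B27, a supplement for neurons, for 10 days before treatment for 24 h. One culture received 1 mM valproate in 0.1% DMSO, 1 received 100 µM lamotrigine in 0.1% DMSO, and 1 received 0.1% DMSO alone, so the solvent was common to every group. Valproate is used against epilepsy and as a mood stabiliser, and it inhibits histone deacetylases of class I. Lamotrigine, also used against epilepsy, acts on voltage-gated sodium channels, which it blocks. The study's labels set the lamotrigine array apart from its histone deacetylase comparison. With 1 array per treatment there is no replicate check and no test, every difference is between these 3 arrays only, and the 2 comparisons with DMSO share their DMSO array. In a culture of several cell types, fewer cells of a type and less RNA per cell cannot be told apart.

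Amino acid transporters pass amino acids across the plasma membrane and the lysosomal membrane, many of them by exchanging one amino acid for another. The Slc7 light chains reach the cell surface as pairs with an Slc3 heavy chain, whereas the cationic Slc7 transporters, the sodium-coupled Slc1 and Slc38 transporters, the Slc36 transporters and the Slc43 transporters need no such partner. In brain, Slc38 transporters carry the glutamine that astrocytes release and neurons take up to make glutamate. Shortage of amino acids or endoplasmic reticulum stress raises translation of the transcription factor ATF4, which switches on several of these genes, among them Slc7a11, Slc7a5, Slc3a2 and Slc38a2.

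Levels are given as scaled signal, the Cy3 signal of a probe relative to its array, where 100 is the 75th percentile of the array's non-control spots. The 3 arrays had 49.6% to 52.9% of spots well above background, 14506 to 15095 genes detected and 0 saturated spots. Probes printed 10 times gave a technical SD of a log2 difference of 0.24 below a scaled signal of 25, 0.09 between 25 and 400, and 0.06 above 400, which covers spot-to-spot error and not differences between cultures. Of the 56 member probes, 54 had 1 spot per array, and those of Slc1a1 and Slc7a8 had 10. Scaling on spike-in controls in place of the percentile adds 0.34 to every valproate minus DMSO difference, 0.20 to every lamotrigine minus DMSO difference and 0.14 to every valproate minus lamotrigine difference on the log2 scale. Of the 41 members, 29 were detected on all 3 arrays, 3 on 1 or 2 arrays, and 9 on none. The 9 that were not well above background anywhere were Slc1a7, Slc7a9, Slc7a12, Slc7a13, Slc7a15, Slc36a3, Slc38a4, Slc38a8 and Slc38a11. Levels of different genes come from different probes and are not ranked against each other.

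The probes of the members that stood apart on 1 array are shown by their first 30 bases of 60, 5′ to 3′, since each value below is the hybridisation of that oligonucleotide. Positions are those of the array's design on mm9. Slc1a5 and Slc7a5 are each shown with 2 probes because both were detected on all arrays, and the Slc7a5 pair gave different results.
Slc1a5, first probe, chr7:17383359-17383418, plus strand: cctaccctctcaggaaatgggttgtcctgt
Slc1a5, second probe, chr7:17383027-17383086, plus strand: aacagtaccagggacccaccggggactcca
Slc1a6, chr10:78277447-78277506, plus strand: tgaacatacatgttctgtgtgggttctctg
Slc7a10, chr7:35985868-35985927, plus strand: tgagaccttgtagagactggaacagccgat
Slc43a3, chr2:84797987-84798046, plus strand: tttgatgatccagtatctacaaagactgcc
Slc38a5, chrX:7857241-7857300, plus strand: cctagatgaagctgttagggttaccctggc
Slc43a1, chr2:84703578-84703637, plus strand: tgcacacatatatgttacgcacatgcatat
Slc7a5, first probe, chr8:124405136-124405195, minus strand: gtggttataatgtcttttactattgtatta
Slc7a5, second probe, chr8:124430996-124431055, minus strand: tagtcttcgccacctacttgctcaagccgg
Slc7a1, chr5:149139957-149140016, minus strand: aggcttgttttggtttgcgaaatactttga
Slc36a2, chr11:54972134-54972193, minus strand: gcaatgaacatcttctgttacctgtcgggc
The 2 Slc7a5 probes lie on the same strand and the first has the lower coordinates, so on this minus-strand gene it is the one nearer the 3′ end.

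Valproate against DMSO gave the wider set of differences. Among the 29 members that both arrays detected, 4 were at least 1.5-fold higher with valproate (Slc1a5, Slc1a6, Slc7a10 and Slc43a3), where 6.25% of all genes were, and 2 were at least 1.5-fold lower (Slc7a5 and Slc38a3), where 5.95% were. The members' median log2 difference was -0.07, against -0.08 over all 14346 genes detected on both arrays, and their SD was 0.45 against 0.42. At a threshold of 2-fold, 0 members were higher, where 2.09% of genes were, and 0 were lower, where 1.42% were. A further 3 members, Slc3a1, Slc38a5 and Slc43a1, were detected with valproate and not with DMSO, as were 4.91% of genes. The reverse held for 0 members and 1.05% of genes. The 2 lower members lay close to the threshold, and quantile normalization, the authors' deposited table, normexp correction and spike-in scaling each left 0. Spike-in scaling raises the higher members to 6, with Slc7a3 and Slc38a9 added, where 17.5% of all genes were higher under that scaling.

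Lamotrigine against DMSO gave fewer differences, and they were in other members except for Slc7a5. Among 29 members that both arrays detected, 1 was at least 1.5-fold higher (Slc36a2), where 1.12% of all genes were, and 2 were lower (Slc7a1 and Slc7a5), where 0.76% were. The median log2 difference was -0.07, against -0.05 over all 14340 genes, and the members' SD was 0.35 against 0.21. Without Slc36a2 the SD of the other 28 was 0.23. Quantile normalization, the authors' deposited table and spike-in scaling each left 0 lower members. With spike-in scaling the members' median was 0.28 for valproate and 0.13 for lamotrigine, both against DMSO and both above 0, as were the medians of all genes. At 2-fold, Slc36a2 remained as the 1 higher member, where 0.0976% of genes were, and 0 were lower, where 0.0628% were. Slc3a1 was the 1 member detected with lamotrigine and not with DMSO, as were 3.21% of genes, and the reverse held for 0 members and 1.11% of genes.

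Between the drugs, 6 of 30 members were at least 1.5-fold higher with valproate than with lamotrigine (Slc1a5, Slc1a6, Slc7a1, Slc7a3, Slc7a10 and Slc43a3), where 6.17% of all genes were, and 2 were lower (Slc7a2 and Slc36a2), where 5.84% were. At 2-fold, 2 were higher (Slc1a5 and Slc7a10), where 2.06% of genes were, and Slc36a2 was lower, where 1.69% were. Slc38a5 and Slc43a1 were the 2 members detected with valproate and not with lamotrigine, as were 3.58% of genes, and the reverse held for 0 members and 1.8% of genes.

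Setting each array against both others sorts the same members by treatment. Valproate stood at least 1.5-fold above both other arrays in Slc1a5, Slc1a6, Slc7a10 and Slc43a3, where 4.33% of 14249 genes did, and below both in 0 members, where 3.87% did. Lamotrigine stood above both others in Slc36a2 alone, where 0.414% of genes did, and below both in Slc7a1 alone, where 0.309% did. DMSO stood above both drugs in Slc7a5 alone, where 0.246% of genes did, and below both in 0 members, where 0.372% did. The Slc7a5 result is that of its first probe, and on its second DMSO (55.7) lay below lamotrigine (74.9).

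**Figure D1:**
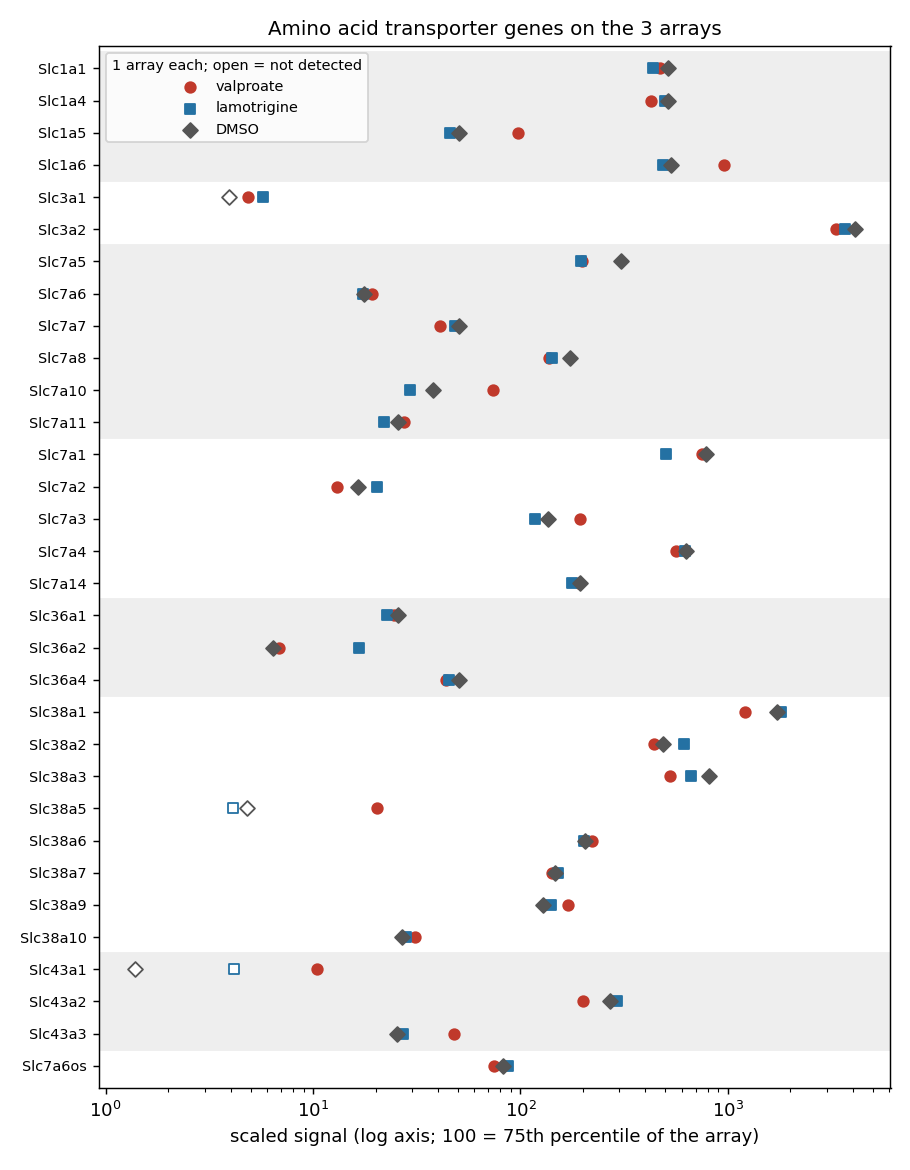
Scaled signal (log axis, 100 is the 75th percentile of the array) of the 32 members detected on at least 1 of the arrays, 1 point per array for valproate, lamotrigine and DMSO, with open points where the probe was not well above background and shaded bands separating families. Valproate lies apart to the right for Slc1a5, Slc1a6, Slc7a10, Slc43a3, Slc38a5 and Slc43a1, lamotrigine to the right for Slc36a2 and to the left for Slc7a1, and DMSO to the right for Slc7a5. Each gene is shown by its brightest probe, and the second Slc7a5 probe places DMSO below lamotrigine.

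In the Slc1 family, the sodium-coupled carriers of acidic and small neutral amino acids, the valproate array was high for 2 of the 4 detected genes. Slc1a5, the neutral amino acid exchanger ASCT2 that carries glutamine, had a scaled signal of 97.8 with valproate, 45.8 with lamotrigine and 50.4 with DMSO. Its second probe read 34.8, 14.2 and 12.1 in the same order, so both probes put valproate highest. The log2 difference between valproate and DMSO was 0.96 on the first probe and 1.53 on the second, and ranked 334th from the highest of 14346 genes on the first. Slc1a6, the glutamate transporter EAAT4 best known from cerebellar Purkinje cells, read 953 with valproate, 488 with lamotrigine and 534 with DMSO. That is a log2 difference of 0.84 between valproate and DMSO and of -0.13 between lamotrigine and DMSO.

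The other detected Slc1 genes stayed within 1.5-fold on every array. Slc1a1, the neuronal glutamate and cysteine transporter EAAT3, read 471 with valproate, 433 with lamotrigine and 515 with DMSO. Its probe was printed 10 times, with a spot SD of 0.057, 0.042 and 0.066 on the log2 scale in that order. Its difference of -0.25 between lamotrigine and DMSO exceeded this spot-to-spot spread, which leaves out the scaling of the arrays. Spike-in scaling adds 0.20 to that difference. Slc1a4, the serine exchanger ASCT1, read 428 with valproate, 497 with lamotrigine and 513 with DMSO. On their main probes all 4 detected Slc1 genes lay below 0 in lamotrigine minus DMSO (median -0.13), where 60.2% of all genes did. The second Slc1a5 probe lay above 0, at 0.23. Of the 4 genes, 3 lie above 0 with spike-in scaling and 1 with quantile normalization.

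The heavy chains anchor the Slc7 light chains. Slc3a2, the heavy chain of most light chains in brain and a known ATF4 target, had a scaled signal of 3336 with valproate, 3672 with lamotrigine and 4077 with DMSO. Its log2 differences from DMSO were -0.29 and -0.15, both short of 1.5-fold. Slc3a1, the heavy chain of the renal cystine transporter, was close to the limit of detection, at 4.87 with valproate and 5.76 with lamotrigine, and at 3.91 with DMSO, where it was not well above background. Its partner Slc7a9 was not detected on any array.

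Among the Slc7 light chains, Slc7a10 stood apart with valproate and, on its first probe, Slc7a5 with DMSO. Slc7a10, the exchanger Asc-1 that carries D-serine, glycine and other small neutral amino acids, read 73.7 with valproate, 29.2 with lamotrigine and 38.0 with DMSO. The log2 difference between valproate and DMSO was 0.96, that between valproate and lamotrigine was 1.34, and that between lamotrigine and DMSO was -0.38. It ranked 134th from the highest of 14544 genes in valproate against lamotrigine. In mouse brain Slc7a10 has been described both in neurons and in astrocytes.

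Slc7a5 encodes LAT1, which brings in large neutral amino acids such as leucine in exchange for glutamine. Its first probe read 197.2 with valproate, 196.6 with lamotrigine and 303.7 with DMSO, so the drugs were alike and both were below DMSO, with log2 differences of -0.62 and -0.63. Its second probe read 51.6 with valproate, 74.9 with lamotrigine and 55.7 with DMSO, with log2 differences of -0.11 and 0.43. On that probe the order of lamotrigine and DMSO was the opposite of that on the first. With the mean of both probes the lamotrigine minus DMSO difference was -0.10, and the valproate minus DMSO difference was -0.37. The first probe ranked 79th from the lowest of 14340 genes in lamotrigine against DMSO.

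The remaining light chains were closer together. Slc7a8, the second large neutral amino acid exchanger LAT2, read 137 with valproate, 142 with lamotrigine and 173 with DMSO. Its 10 spots had an SD of 0.034, 0.049 and 0.031 on the log2 scale, and its log2 differences from DMSO were -0.33 and -0.28. Slc7a11, the cystine and glutamate exchanger xCT that supplies cysteine for glutathione, read 27.5 with valproate, 22.0 with lamotrigine and 25.6 with DMSO. Slc7a7, a light chain that exchanges cationic for neutral amino acids, had log2 differences from DMSO of -0.31 with valproate and -0.07 with lamotrigine, and the related Slc7a6 had 0.12 and -0.03. On their main probes all 6 detected light chains lay below 0 in lamotrigine minus DMSO (median -0.25), where 60.2% of all genes did. The second Slc7a5 probe lay above 0, at 0.43, and spike-in scaling leaves 4 of 6 light chains below 0. With valproate, 3 lay above 0 and 3 below.

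The cationic branch carries arginine and lysine. Slc7a1, the widely expressed arginine transporter CAT1, had a scaled signal of 754 with valproate, 501 with lamotrigine and 781 with DMSO, so lamotrigine was the low array and the other two lay close together. The log2 difference between lamotrigine and DMSO was -0.64, the 72nd from the lowest of 14340 genes, and that between valproate and DMSO was -0.05. Slc7a3, the CAT3 transporter of neurons, read 194 with valproate, 118 with lamotrigine and 136 with DMSO. It was 0.72 higher on the log2 scale with valproate than with lamotrigine, and its difference of 0.51 from DMSO did not reach 1.5-fold.

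Slc7a2, the CAT2 transporter, was dim, at 13.0 with valproate, 20.3 with lamotrigine and 16.4 with DMSO, where the technical SD is widest. It was -0.64 on the log2 scale with valproate against lamotrigine. Slc7a4, for which no transport of its own has been established, read 564, 621 and 625 in the same order. Slc7a14, another relative of the cationic transporters, had log2 differences from DMSO of -0.02 with valproate and -0.14 with lamotrigine. No cationic member was 1.5-fold from DMSO with valproate, whereas with spike-in scaling Slc7a3 passes and all 5 lie above 0.

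The Slc36 genes encode transporters of small amino acids such as glycine and proline. Slc36a2, a proton-coupled glycine and proline transporter, read 6.88 with valproate, 16.7 with lamotrigine and 6.42 with DMSO. Lamotrigine was the high array, and the log2 difference of 1.38 from DMSO ranked 1st from the highest of 14340 genes. It rests on 1 spot per array, as for 54 of the 56 member probes, and here the signal was close to the background. With normexp background correction the log2 difference was 0.46, below 1.5-fold. Slc36a4, a proline and tryptophan transporter, read 44.0 with valproate, 45.2 with lamotrigine and 50.5 with DMSO. Slc36a4 and Slc36a1, the lysosomal proton-coupled transporter, had log2 differences from DMSO between -0.20 and -0.06 with both drugs.

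Slc38 transporters handle glutamine and other neutral amino acids. Slc38a1, a glutamine transporter of neurons, read 1205 with valproate, 1807 with lamotrigine and 1715 with DMSO. Its second probe read 151, 226 and 192 in the same order, and both put valproate lowest, with log2 differences from DMSO of -0.51 and -0.35. Another, dimmer probe read 14.5 with valproate, 16.1 with lamotrigine and 18.4 with DMSO. Slc38a3, the glutamine transporter of astrocytes, read 528 with valproate, 662 with lamotrigine and 809 with DMSO. The order was the same for the 2 drugs, and only valproate was 1.5-fold below DMSO (log2 difference -0.61). With spike-in scaling that difference was -0.27.

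Slc38a2, the SNAT2 transporter that cells induce when amino acids run short, was highest with lamotrigine. It read 440 with valproate, 613 with lamotrigine and 486 with DMSO. The log2 difference from DMSO was -0.15 with valproate, which lies above 0 with spike-in scaling, and 0.33 with lamotrigine. Slc38a9, a lysosomal arginine-sensing transporter of the mTORC1 pathway, read 170 with valproate, 140 with lamotrigine and 129 with DMSO. Its 3 probes gave log2 differences between valproate and DMSO of 0.40, 0.42 and -0.26, the last from the dimmest probe. Slc38a6, Slc38a7 and Slc38a10 lay between -0.04 and 0.21 with both drugs against DMSO on their main probes, and a dimmer Slc38a6 probe gave 0.30 with valproate and 0.22 with lamotrigine.

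Slc38a5, a glutamine transporter described in astrocytes, was read above background with valproate only. Its scaled signal was 20.4 with valproate, against 4.13 with lamotrigine and 4.81 with DMSO, neither of them well above background. That is at least 3.85-fold higher with valproate than with DMSO and at least 4.41-fold higher than with lamotrigine. These bounds compare the valproate level with the lowest signal well above background on the other array. With normexp correction the bound against DMSO was 0.52 on the log2 scale, below 1.5-fold.

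The Slc43 family was divided with valproate. Slc43a3, which is a purine nucleobase transporter despite its family name, read 47.9 with valproate, 27.03 with lamotrigine and 25.4 with DMSO. Valproate was the high array, 0.92 above DMSO on the log2 scale. With normexp correction this was 0.56, just under 1.5-fold. Slc43a2, the large neutral amino acid transporter LAT4, read 199 with valproate, 290 with lamotrigine and 271 with DMSO, the opposite order for valproate, at -0.44. Slc43a1, the related LAT3, was well above background with valproate only, at 10.5, against 4.16 with lamotrigine and 1.39 with DMSO. It was at least 1.98-fold higher with valproate than with DMSO, which normexp correction brings to a log2 bound of 0.27. Slc7a6os read 74.2 with valproate, 87.4 with lamotrigine and 82.0 with DMSO. Slc7a6 and Slc7a6os had log2 differences between valproate and DMSO of 0.12 and -0.14.

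**Figure D2:**
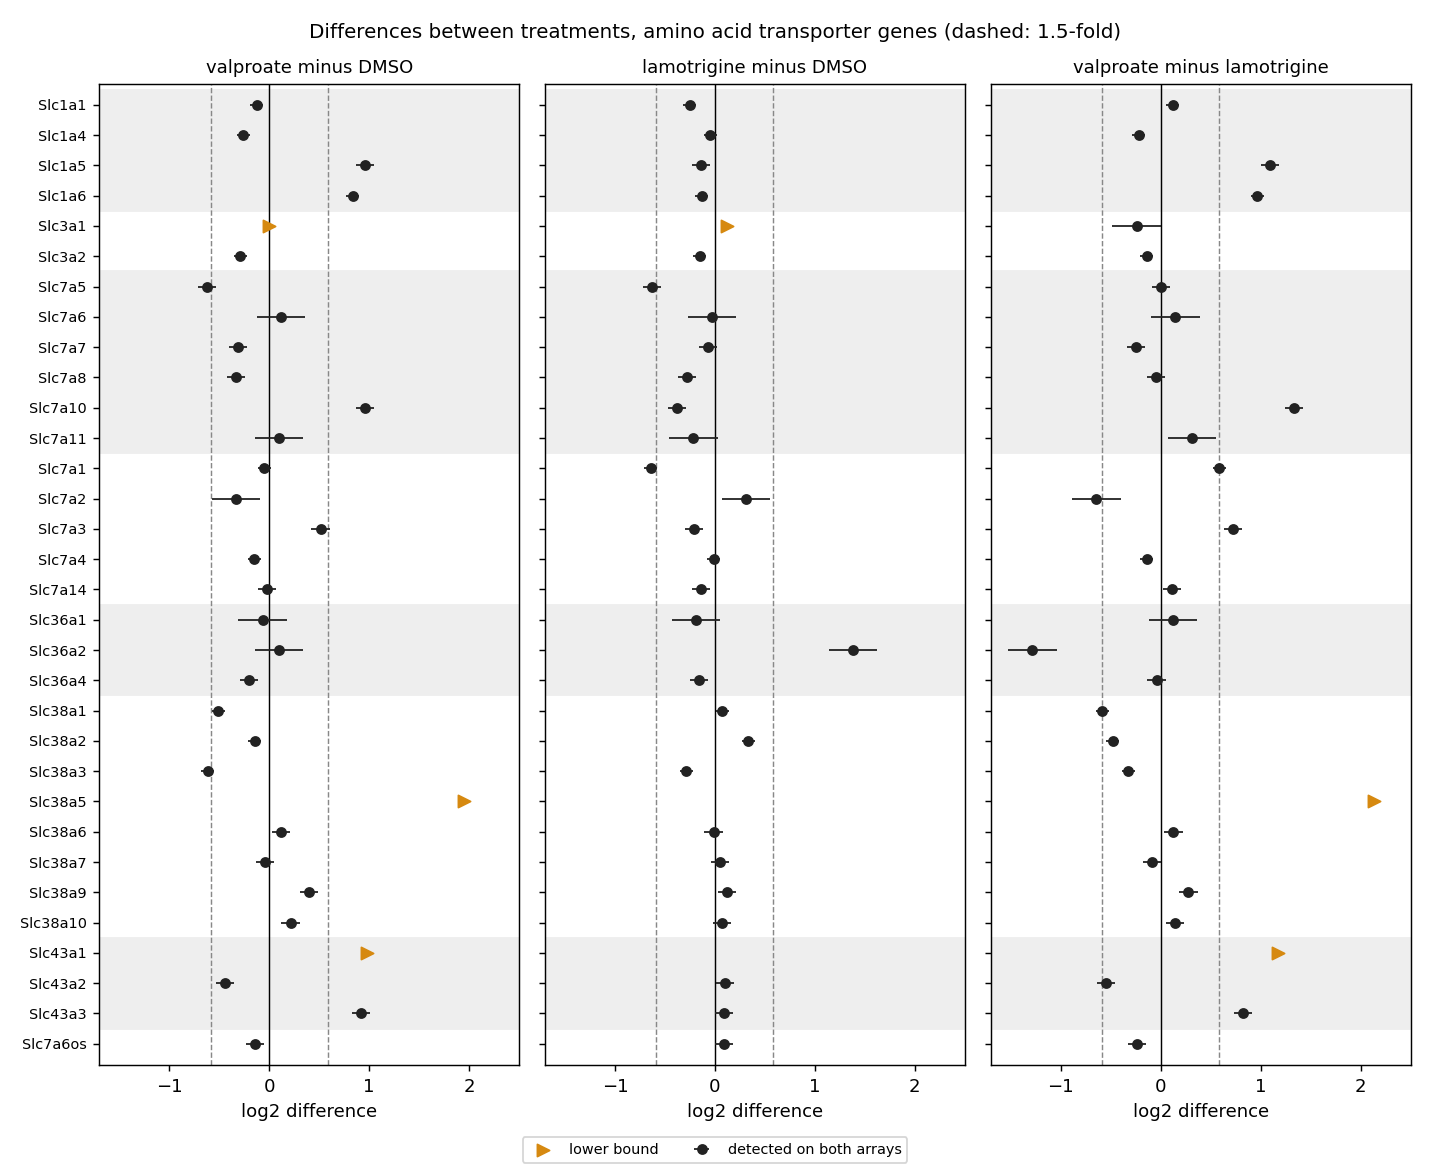
Log2 differences of each member for valproate minus DMSO, lamotrigine minus DMSO and valproate minus lamotrigine, with horizontal bars of 1 technical SD for the signal range, triangles for lower bounds and dashed lines at 1.5-fold. In the left panel Slc1a5, Slc1a6, Slc7a10 and Slc43a3 lie to the right of the dashed line and Slc7a5 and Slc38a3 to the left of the other, while in the middle panel Slc36a2 lies far to the right and Slc7a1 and Slc7a5 to the left.

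Of the 5 members with several detected probes (Slc1a5, Slc7a5, Slc38a1, Slc38a6 and Slc38a9), 4 had the same sign on all their probes in valproate minus DMSO and 0 in lamotrigine minus DMSO. In valproate minus lamotrigine, 4 had 1 sign.

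**Figure D3:**
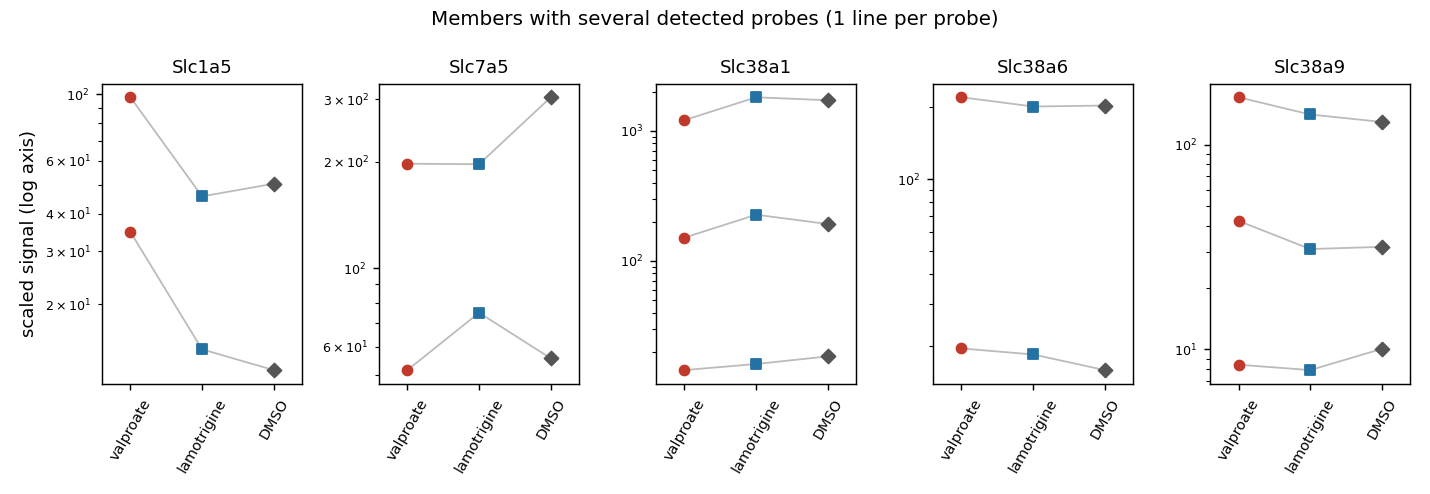
Scaled signal (log axes) of every detected probe of the 5 members with several, 1 line per probe across the valproate, lamotrigine and DMSO arrays. Both Slc1a5 probes are highest with valproate, whereas the Slc7a5 probes place DMSO and lamotrigine in opposite order.

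The members known to be induced by amino acid shortage or endoplasmic reticulum stress were Slc1a4, Slc1a5, Slc3a2, Slc7a1, Slc7a3, Slc7a5, Slc7a11 and Slc38a2, all 8 of them detected on every array. With valproate against DMSO, 3 lay above 0 and 5 below, where 60.7% of all genes lay below (median -0.10, against -0.08 over all genes). The 1.5-fold threshold was passed by Slc1a5 on the high side and Slc7a5 on the low side, beside 6.25% and 5.95% of all genes. With lamotrigine against DMSO, 1 lay above 0 (Slc38a2) and 7 below, where 60.2% of all genes lay below (median -0.18, against -0.05). Slc7a1 and Slc7a5 passed on the low side, beside 0.76% of all genes. The second detected probes of Slc1a5 and Slc7a5 lay above 0 in this comparison, at 0.23 and 0.43. Spike-in scaling gives 4 above and 4 below for lamotrigine, with a median of 0.02, against 0.15 over all genes. For valproate it gives 7 above and 1 below, with a median of 0.25, against a median of all genes of 0.26 under the same scaling. Between the drugs, Slc1a5, Slc7a1 and Slc7a3 were at least 1.5-fold higher with valproate than with lamotrigine.

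Other genes of the integrated stress response, the pathway that ends in ATF4, were read beside them. There were 24 such genes with a level on both arrays of a comparison. Valproate gave 1 at least 1.5-fold higher and 4 lower than DMSO, beside 6.25% and 5.95% of all genes. The median with valproate was -0.17, with 8 above 0 and 16 below, where 60.7% of all genes lay below. Lamotrigine gave 0 higher and 3 lower than DMSO, beside 1.12% and 0.76% of all genes. The median with lamotrigine was -0.29, with 5 above 0 and 19 below, where 60.2% of all genes lay below. Trib3, a pseudokinase induced by this response, read 37.8 with valproate, 34.2 with lamotrigine and 92.1 with DMSO. The transcription factor Atf5 read 3164 with valproate, 4315 with lamotrigine and 7197 with DMSO. Chac1, which breaks down glutathione, read 213 with valproate, 199 with lamotrigine and 382 with DMSO. Atf4 itself had log2 differences from DMSO of -0.60 with valproate and -0.43 with lamotrigine. With spike-in scaling the list's medians are 0.17 and -0.086, against 0.26 and 0.15 over all genes. Its valproate counts are then 5 higher and 2 lower, beside 17.5% and 1.81% of all genes. Sesn2, a stress-induced regulator of mTORC1, had 0.51 with valproate and 0.25 with lamotrigine. Pycr1, an enzyme of proline synthesis, had 0.63 with valproate and -0.54 with lamotrigine.

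Cytosolic aminoacyl-tRNA synthetases, which load amino acids onto tRNA and many of which ATF4 induces, had a median of -0.08 with valproate and -0.20 with lamotrigine over 20 genes, both against DMSO. With lamotrigine 19 of 20 lay below 0, where 60.2% of all genes did, and 1 was 1.5-fold lower, Yars at -0.62, beside 0.76% of all genes. Spike-in scaling moves these medians to 0.26 and -0.0030 and leaves 10 of 20 below 0 with lamotrigine. The medians of all genes under that scaling are 0.26 and 0.15. Yars and Cars, the tyrosine and cysteine enzymes, were both at -0.61 with valproate, where 5.95% of all genes were 1.5-fold lower.

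Over 27 enzymes of amino acid synthesis and breakdown, 5 were at least 1.5-fold higher and 2 lower with valproate than with DMSO, beside 6.25% and 5.95% of all genes. Spike-in scaling gives 9 higher and 1 lower, beside 17.5% and 1.81% of all genes under that scaling. With lamotrigine 0 were higher and 0 lower, beside 1.12% and 0.76% of all genes, and the median was -0.15. That median lies above 0 with spike-in scaling, as does that of all genes, at 0.15. Arg2, a mitochondrial arginase, read 50.8 with valproate, 21.2 with lamotrigine and 19.5 with DMSO. Asl, the argininosuccinate lyase that produces arginine, read 229 with valproate, 101 with lamotrigine and 102 with DMSO. Prodh, which begins proline breakdown, read 144 with valproate, 310 with lamotrigine and 276 with DMSO. Shmt1, which interconverts serine and glycine, was 0.86 higher on the log2 scale with valproate than with DMSO.

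Genes by which mTORC1 senses amino acids were close to the median of all genes. Of 32, 1 was 1.5-fold higher with valproate (Rragb, a Rag GTPase, at 0.73) and 2 were lower (Mlst8 at -0.64 and Kptn at -0.61), beside 6.25% and 5.95% of all genes, with a median of -0.05. Quantile normalization gives 3 higher and 0 lower, beside 6.66% and 5.07% of all genes. Spike-in scaling gives 5 and 0, beside 17.5% and 1.81%. With lamotrigine the median was -0.05 and 1 was lower, the arginine sensor Castor1 at -0.59, beside 0.76% of all genes. Amino acid transporters of other families had 1 of 20 higher and 3 lower with valproate, beside 6.25% and 5.95% of all genes, and 0 and 0 with lamotrigine, beside 1.12% and 0.76%. The mitochondrial glutamate carrier Slc25a18 was at -1.37, the aspartate-glutamate carrier Slc25a13 at 1.06, the astrocyte glutamate transporter Slc1a2 at -0.80 and the glycine transporter Slc6a9 at -0.79, all valproate minus DMSO. Genes of NRF2 and of glutathione synthesis and breakdown had a median of 0.06 over 15 genes with valproate and -0.06 over 16 with lamotrigine. In each, 1 gene was 1.5-fold lower, Chac1, which breaks down glutathione, beside 5.95% and 0.76% of all genes. Ggt1 was detected with DMSO and not with valproate, as were 1.05% of genes. With spike-in scaling the valproate medians of these 6 lists lie between 0.17 and 0.41, against 0.26 over all genes. The lists share genes, and Chac1, Sesn2, Asns and Pycr1, among others, are each counted in more than 1 of them.

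**Figure D4:**
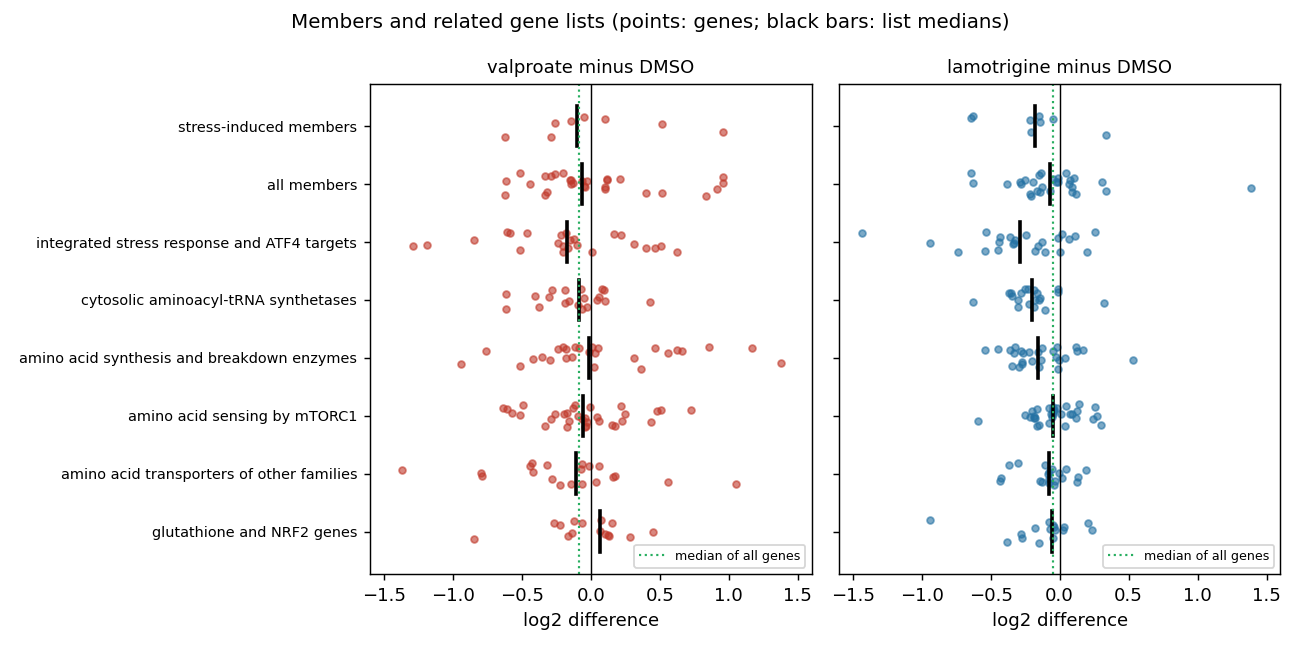
Log2 differences of single genes (points) in the stress-induced members, all members and 6 related gene lists, with list medians as black bars and the median of all genes as a dotted line, for valproate minus DMSO and lamotrigine minus DMSO. Valproate spreads the points of most lists more widely, and the integrated stress response list has the lowest median in both panels, at -0.17 and -0.29.

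Markers of the cell types that such a culture can hold were read on the same arrays. All 8 astrocyte markers were detected. In valproate minus DMSO 7 were below 0, where 60.7% of all genes were, while Gfap was at 0.06. The median of the 8 was -0.50, against -0.08 over all genes, and -0.16 with spike-in scaling, against 0.26. Their summed scaled signal was 20774 with valproate, 40178 with lamotrigine and 40874 with DMSO. Without Aldoc, which carries most of that gap, it was 10701 with valproate, 14573 with lamotrigine and 14879 with DMSO. Of the members described in astrocytes, Slc38a3 was lower with valproate than with DMSO, and Slc38a5 and Slc7a10 were higher. All 8 neuronal markers were detected, with a median of -0.32 for valproate and -0.22 for lamotrigine against DMSO. Spike-in scaling brings these to 0.02 and -0.02, and the medians of all genes to 0.26 and 0.15.

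Of 9 oligodendrocyte lineage markers, 8 were detected on both the valproate and DMSO arrays. With valproate 1 was at least 1.5-fold higher and 3 were lower, beside 6.25% and 5.95% of all genes. The markers' median was -0.32, with Gpr17 at -3.75. With spike-in scaling the median was 0.03, against 0.26 over all genes. With lamotrigine 8 of 9 were below 0, where 60.2% of all genes were (median -0.18). With spike-in scaling this median was 0.02, against 0.15 over all genes. The 3 detected choroid plexus and ependymal markers were Ttr, Folr1 and Foxj1, and Kl was detected on no array. All 3 were below 0 with valproate (median -0.67, with Ttr above 0 under spike-in scaling), where 60.7% of all genes were. With lamotrigine all 3 were above 0 (median 0.42), where 60.2% of all genes were below. Slc36a2, close to the background on 1 spot per array, was at 0.10 with valproate and 1.38 with lamotrigine against DMSO. Of 9 microglial markers, 5 were detected on all arrays, and Cx3cr1, P2ry12, C1qa and Trem2 were detected on none. Of 7 endothelial markers, Kdr, Cdh5 and Slco1a4 were detected on all arrays, at 0.20, -0.45 and -0.91 for valproate and 0.34, -0.07 and 0.61 for lamotrigine against DMSO. Pecam1 was detected with both drugs, Flt1 with valproate only, and Cldn5 and Tek on no array. All 8 fibroblast and mural markers were below 0 with valproate (median -0.25), where 60.7% of all genes were. With spike-in scaling 5 of these 8 markers lie above 0, as does the median of all genes, at 0.26. The part of cell makeup in the members' differences was not tested.

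The promoters of the members were searched for TGATGNAA on both strands, the form in which ATF4 composite sites are commonly written, in windows of 300 bases that end 50 bases after the start. RefSeq windows (GRCm38.p6) were at hand for 29 members, and 3 of them held a match (Slc7a11, Slc7a7 and Slc1a4), against 4.51% of 27025 genes. Of the 8 stress-induced members, 5 had a window and 2 of these held a match. Slc1a5, Slc7a3 and Slc7a5 had no window and were not searched. Slc7a11 had 2 matches, and its 250 bases before the start, chr3:50443614-50443863 on the minus strand, are shown with both matches in capitals.
Slc7a11 promoter: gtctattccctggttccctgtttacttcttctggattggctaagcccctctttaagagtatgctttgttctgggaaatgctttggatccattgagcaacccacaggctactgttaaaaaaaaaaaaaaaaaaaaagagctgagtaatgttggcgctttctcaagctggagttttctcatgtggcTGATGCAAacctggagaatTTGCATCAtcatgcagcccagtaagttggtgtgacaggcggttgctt
Counted from the start site, the matches begin at position -66 in forward orientation and at position -47 in reverse orientation. Slc7a11 itself had log2 differences from DMSO of 0.10 with valproate and -0.22 with lamotrigine, and Slc1a4 had -0.26 and -0.05. A match is a run of letters in this window and not a measured site.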

How the data were processed

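Each array was 1-colour (Cy3). Spot intensity was the processed signal that Feature Extraction 10.7.1.1 gave, per the file headers, background-subtracted within an array, on probes placed on mm9. The authors also deposited a table of linear intensity values, quantile-normalized by its name and equal in its sorted columns to within 0.0312%. The software behind it is not given in the sources used here, and it served as an alternative.

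Level was log2 of the processed signal minus log2 of the 75th percentile of non-control spots. Outlier spots were left out (82 to 128 per array) and spots of a probe were averaged. A probe was detected if more than 0.5 of its spots were marked well above background. Genes were assigned to probes by RefSeq accession or symbol, and a gene's probe was the one with the highest mean level. Differences were taken for genes detected on both arrays. Where 1 array lacked detection, its lowest well-above-background signal (3.88 with valproate, 4.63 with lamotrigine, 5.29 with DMSO) or the probe's own higher signal gave a lower bound. With n = 1, differences of at least 1.5-fold were counted as a description. The calculation was tested on simulated data.

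Full values are given for members at least 1.5-fold apart, the 2 largest bounds, the brightest probe of each family and the stress-induced members, and up to 4 genes farthest from 0 per related list. Members, lists and rules were chosen with earlier results of these data known, and the stress-induced subset was named in that choice. Atf4, Sesn2, single cell type markers, the full values of further members such as Slc38a9, and the members shown by sequence were chosen after their values were seen.

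Alternatives were quantile normalization, spike-in scaling (6 of 10 spike-in probes), a centring of arrays on their median detected probe, normexp (limma 3.58.1, R 4.3.3, offset 50), the deposited table, the mean over a gene's detected probes, no detection filter and a 2-fold threshold. Other steps used Python 3.11.15, numpy 2.4.6 and pandas 2.3.3.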

Additional observations from a re-analysis of the deposited data

How the results depend on the processing

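Members at least 1.5-fold apart numbered 4 higher and 2 lower for valproate against DMSO, 1 and 2 for lamotrigine against DMSO, and 6 and 2 for valproate against lamotrigine. Quantile normalization and the authors' deposited table each gave 0 lower for valproate and 0 lower for lamotrigine against DMSO. Both put 5.07% and 0.91% of all genes lower in these comparisons. Normexp correction gave 0 lower with valproate, beside 3.40% of all genes, and 1 lower between the drugs, beside 3.18%. With lamotrigine it gave 0 higher and 1 lower, beside 0.0976% and 0.132%. Without a detection filter all 41 members were compared, with 8 higher with valproate, 6 higher with lamotrigine and 5 lower between the drugs. Of all genes 9.02%, 6.65% and 11.4% were so, in the same order. The mean of detected probes gave 1 lower with valproate and 1 lower with lamotrigine, beside 7.9% and 2.35% of all genes. A 2-fold threshold gave 0 higher and 0 lower with valproate, 0 lower with lamotrigine, and 2 higher and 1 lower between the drugs. The shares of all genes at 2-fold are those given above. Spike-in scaling gave 6 higher and 0 lower with valproate, beside 17.5% and 1.81% of all genes. It gave 0 lower with lamotrigine, beside 0.195%, and 1 lower between the drugs, beside 3.71%. It moved the members' medians to 0.28, 0.13 and 0.13 in the same order of comparisons, and those of all genes to 0.26, 0.15 and 0.11. It moved the list medians, valproate then lamotrigine against DMSO, to 0.17 and -0.086 for the integrated stress response, 0.26 and -0.0030 for tRNA synthetases, 0.33 and 0.047 for synthesis and breakdown, 0.29 and 0.15 for mTORC1 sensing, 0.24 and 0.13 for other transporters, and 0.41 and 0.14 for glutathione genes. These shifts follow from the constant that spike-in scaling adds. Centring on the median of detected probes left these counts of members as they were and moved their valproate median to -0.06. In the 7 settings of processing, Slc1a5, Slc1a6 and Slc7a10 were at least 1.5-fold higher with valproate than with DMSO in 7, Slc43a3 in 6, and Slc38a3 and Slc7a5 were lower in 3 and 2. For lamotrigine against DMSO, Slc36a2 passed in 6, Slc7a1 in 4 and Slc7a5 in 2. All 9 kept their sign in 7 of 7, but the settings reprocess the same spots and are not separate checks. The deposited table nearly repeats quantile normalization. The second Slc7a5 probe had the other sign in lamotrigine minus DMSO, at 0.43. The causes of the other shifts were not tested.

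No paired analysis was possible because each treatment has 1 array, which also leaves no array to omit. Signal over background limits Slc36a2, Slc3a1, Slc38a5 and Slc43a1, and 9 members were below it on every array.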
